A study of Mus musculus with 18 samples.

Results

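BMP and TGF-beta signalling was followed through 10 genes in LT-HSCs, the long-term haematopoietic stem cells of bone marrow, which can rebuild all blood lineages. The genes are Bmp4, Tgfb1, Bmpr1a, Bmpr2, Tgfbr1, Tgfbr2, Id1, Id2, Id3 and Smad7, taken by symbol from a table of 21003 genes. All 10 had counts in at least 1 library, but Bmp4 and Bmpr1a had none in 8 of 18. RNA was sequenced from 100 sorted LT-HSCs per library, from 6 mice aged 8 to 12 weeks, and each mouse number has 1 library in each of 3 groups. The labels name the mice as B6.SJL in the growth protocol and as C57 B6 wild type in the genotype field. The fresh group was not cultured and is also labelled pH 7.4, and the other groups spent 48 h in medium of pH 7.4 or pH 6.9. The protocol gives the culture as IMDM with 10% serum and cytokines that include SCF and G-CSF, at 50 ng/ml, at 37°C, 5% CO2 and 3% O2.

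BMP ligands bind paired receptor kinases such as Bmpr2 and Bmpr1a, and TGF-beta ligands bind Tgfbr2 and then Tgfbr1. BMP receptors phosphorylate Smad1, Smad5 and Smad9 while TGF-beta receptors phosphorylate Smad2 and Smad3, and both groups of Smads join Smad4 in the nucleus. Id1, Id2 and Id3, which encode inhibitors of basic helix-loop-helix factors, are widely used as BMP targets, and Smad7 is a target that inhibits the receptors. In bone marrow, TGF-beta is known for holding stem cells out of the cell cycle.

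Fresh replicate 1 held 6311 counts in all and 0 counts for each of the 10 genes. Fresh replicate 4 and pH 6.9 replicate 3 detected 9408 and 8925 genes, against 11225 to 12792 in the other 15 libraries, which held 1640817 to 7508120 counts. Mice 1, 3 and 5 (called odd mice below) share a first sequencing index within each group, and mice 2, 4 and 6 (even mice) share a different index. The mice and that index therefore cannot be told apart. Each group also has its own first indices, so a difference between groups cannot be told apart from one between indices. Results are given over all 18 libraries, and then for odd mice and for even mice over the 15 libraries. The 12 markers of LT-HSCs fixed for this work all had counts in each of these 6 sets. In bulk RNA, fewer cells of a type and less RNA per cell cannot be told apart.

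Levels are CPM (counts per 1e+06 of a library's scaled total), and only levels per kilobase of exon allow genes to be compared with each other. Over the 15 libraries the median level per kilobase was highest for Id1, at 89.1 CPM per kb. Tgfb1 (18.6), Id2 (16.2) and Id3 (13.4) followed, with overlapping ranges over libraries. The receptors Tgfbr1 (4.92), Tgfbr2 (3.70) and Bmpr2 (1.12) and the inhibitor Smad7 (1.75) were lower on the same scale. Bmp4 (0.762) and Bmpr1a (0.0406) had the lowest medians, but Bmp4 reached 37.3 CPM per kb in pH 6.9 replicate 1.

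**Figure D1:**
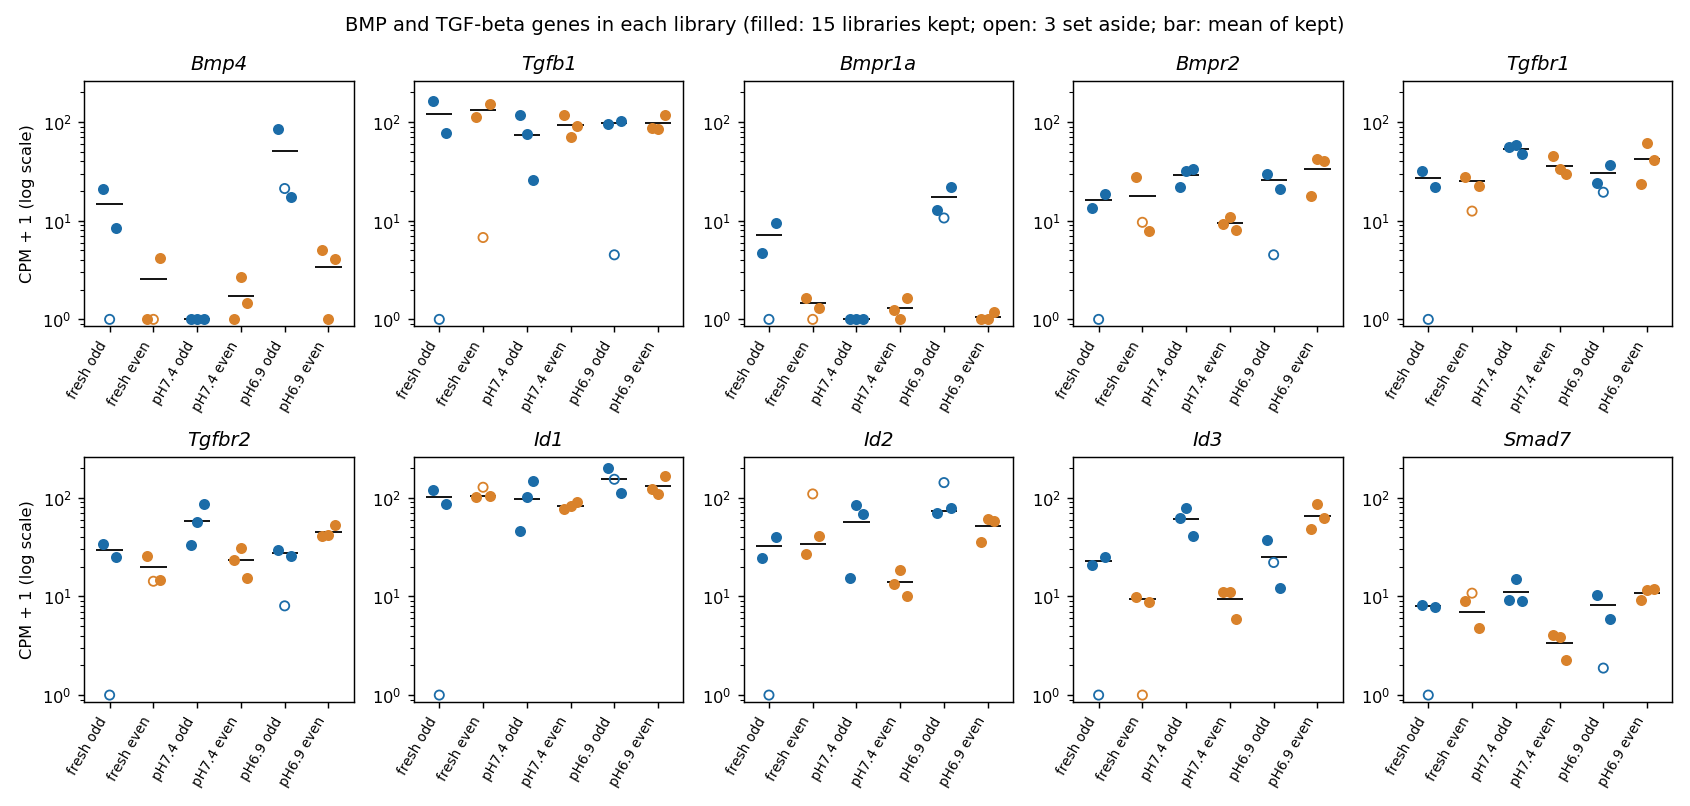
CPM + 1 on a log axis for each of the 10 genes, with 1 point per library, by group and odd (blue) or even (orange) mice. Filled points are the 15 libraries with more than 10000 genes detected, open points the other 3, and bars the means of the filled points. Bmp4 and Bmpr1a sit at 0 CPM in all 3 pH 7.4 libraries of odd mice, and Id3 is high in pH 7.4 odd and pH 6.9 even mice.

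Over all 6 mice, pH 6.9 was compared with pH 7.4 culture, and the first index differed along with the acidity of the medium. None of the 9 genes that could be tested passed edgeR's quasi-likelihood test with Benjamini-Hochberg adjustment, where 0% of 10104 genes passed. Bmpr1a was too low to be tested in this fit. The count of the 9 with an unadjusted p under 0.05 was 2, against 2.51% of genes, and DESeq2 and limma-voom called 0. Id1 stood at a lowest, median and highest of 107, 137 and 197 CPM in pH 6.9 culture and 45.3, 85.8 and 145 in pH 7.4 culture. The groups overlapped, and Id1 was higher in pH 6.9 culture in 5 of 6 mice (log2 fold change 0.67 ± 0.30 SE, edgeR adjusted p = 0.997). Id2 was higher in pH 6.9 culture in 6 of 6 mice, at 34.2, 64.3 and 141 CPM against 9.04, 15.8 and 82.8 (log2 fold change 1.10 ± 0.55, edgeR adjusted p = 0.997). The 141 CPM is pH 6.9 replicate 3, which is not among the 15 libraries, and it enters these counts of mice. Over the 5 pH 6.9 libraries kept, the median of Id2 was 60.2 CPM and the highest value 77.7. Bmp4 stood at 0, 10.1 and 83.9 CPM in pH 6.9 culture and at 0, 0 and 1.71 in pH 7.4 culture, with 5 of 6 mice higher in pH 6.9 culture (edgeR unadjusted p = 0.00071, adjusted p = 0.997). Id3 stood at 11.2, 42.0 and 85.9 CPM in pH 6.9 culture and 4.91, 24.8 and 77.5 in pH 7.4 culture, and 3 of 6 mice were higher in each.

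Culture against fresh cells gave the same count over 18 libraries. For pH 7.4 minus fresh, 0 of 9 genes passed edgeR's test (background 0%), with 2 at an unadjusted p under 0.05 (background 3.77%) and 0 by DESeq2 and limma-voom. For pH 6.9 minus fresh, 0 of 9 passed (background 0%), with 1 at an unadjusted p under 0.05 (background 2.27%) and 0 by the other tools. Tgfbr1, the type I receptor of TGF-beta, stood at 28.9, 45.6 and 57.5 CPM (lowest, median, highest) in pH 7.4 culture. In fresh cells it stood at 0, 21.3 and 30.9 CPM, and the groups overlapped (log2 fold change 0.99 ± 0.37, edgeR adjusted p = 0.879). The 0 is fresh replicate 1, where 3 counts amount to 240.5 CPM, so it does not measure a level. Over the 4 fresh libraries kept among the 15, the lowest Tgfbr1 value was 20.9 CPM. Id3 was 10.1 ± 10.0 CPM (SD, n = 6) in fresh cells, 33.9 ± 30.5 in pH 7.4 culture and 43.9 ± 27.3 in pH 6.9 culture. Over the 4 fresh libraries kept, Id3 was 15.2 ± 8.06 CPM. Neither culture passed the test against fresh cells for Id3.

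Within the sets of mice, different genes passed in the pH comparison. In odd mice Bmp4 and Bmpr1a rose in pH 6.9 culture, which is 2 of 10 genes against a background of 10.6% of 11226 genes called, or 4.93% upward. In even mice Bmpr2, Id2, Id3 and Smad7 rose, which is 4 of 10 against 6.24% called, or 2.68% upward. The difference between odd and even mice passed for Bmp4, Bmpr1a, Bmpr2, Tgfbr2 and Id3, 5 of 10 against 17.2% of genes. The 10 genes had a median log2 fold change of 0.09 (odd) and 1.28 (even), against -0.08 and 0.07 over all genes tested. When all 18 libraries entered the same fit, none of the 10 passed in even mice, where 0 of all genes passed and 583 had an unadjusted p under 0.05. Bmp4 and Bmpr1a still passed in odd mice there (background 0.54%), and Bmpr1a and Id3 for the difference (background 1.48%).

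**Figure D2:**
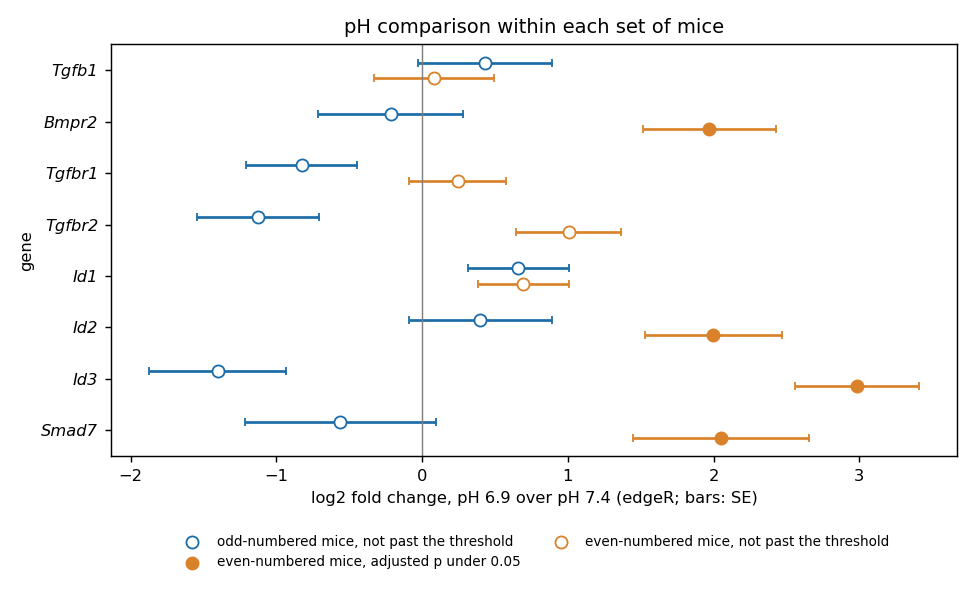
Log2 fold change of pH 6.9 over pH 7.4 with its SE (edgeR, 15 libraries) for 8 of the 10 genes, in odd (blue) and even (orange) mice; filled points passed an adjusted p of 0.05. Id3 lies at -1.40 in odd and 2.98 in even mice, while Id1 lies at 0.66 and 0.69. Bmp4 and Bmpr1a are left out because a set at 0 counts gives no fold.

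Of the ligands, Bmp4 (chr14:46383520-46390669, minus strand of mm10) had counts in 10 of the 18 libraries. In odd mice it stood at 20.0 and 7.41 CPM in fresh cells, at 0, 0 and 0 in pH 7.4 culture, and at 83.9 and 16.2 in pH 6.9 culture. In even mice it stood at 0 and 3.14 CPM in fresh cells, at 0, 1.71 and 0.476 in pH 7.4 culture, and at 4.06, 0 and 3.08 in pH 6.9 culture. The odd pH 6.9 libraries were thus all above the pH 7.4 ones, while the even ones overlapped. With the pH 7.4 libraries at 0, the level in odd mice was at least 196-fold higher in pH 6.9 culture, counting 3 counts over the set as its floor (edgeR adjusted p = 0.00694). This bound was 63.5-fold without pH 6.9 replicate 1 and 77.1-fold without pH 7.4 replicate 3. This call held without any 1 library (highest edgeR adjusted p 0.0343) and was lost with limma-voom (0.0508). The difference between the sets of mice (edgeR adjusted p = 0.0305) was lost with the mouse number as a replicate block (0.0865). It was also lost with limma-voom (0.225), without pH 7.4 replicate 1, 3, 4 or 5 or pH 6.9 replicate 1 or 6 (up to 0.11). On the opposite strand an antisense gene, Gm15222, overlaps the Bmp4 locus over 1764 bp and was not analysed here. A coding gene there, Gm15217, overlaps it over 89 bp and had 0 counts in every library.

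Tgfb1 (chr7:25687002-25705077, plus strand), the TGF-beta ligand of blood cells, passed in no comparison. In odd mice it stood at 118, 74.7 and 24.6 CPM in pH 7.4 culture and 93.8 and 101 in pH 6.9 culture. In even mice it stood at 116, 68.7 and 91.0 CPM in pH 7.4 culture and 85.9, 84.4 and 117 in pH 6.9 culture. The pH groups overlapped in both sets. Fresh cells stood at 161 and 77.0 CPM in odd and 111 and 151 in even mice.

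Of the receptors, Bmpr1a (chr14:34410734-34503341, minus strand), a type I receptor of BMPs, followed the pattern of Bmp4. In odd mice it stood at 3.72 and 8.46 CPM in fresh cells, at 0, 0 and 0 in pH 7.4 culture, and at 11.7 and 20.7 in pH 6.9 culture. In even mice no library of the 15 was above 0.638 CPM. The level in odd mice was at least 63.6-fold higher in pH 6.9 culture than in pH 7.4 culture (edgeR adjusted p = 0.00318), and this call held without any 1 library (up to 0.0296). The bound was 25.0-fold without pH 7.4 replicate 3. The difference between odd and even mice (edgeR adjusted p = 0.00435) was lost without pH 7.4 replicate 6 (0.0603). Bmpr1a also had counts in pH 6.9 replicate 3, one of the libraries set aside, at 9.65 CPM, and Bmp4 stood there at 20.2 CPM. Bmpr1a overlaps an antisense gene, Gm17110, over 970 bp. Because the library kit keeps no strand, reads of Bmp4 and Bmpr1a within these overlaps cannot be told apart from those of their antisense genes. The overlaps are between whole gene spans, exons and introns together.

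Stromal and epithelial cells are known to make Bmp4, so their markers are given beside these values. The 8 markers of stroma and endothelium summed to 0.617 to 5.48 CPM in the odd pH 6.9 libraries and to 3.78 to 9.11 in the odd pH 7.4 ones. Of these 8, the same number, 4, had a count in each of those sets, and Cxcl12, Pdgfra and Cdh5 were at 0 in both. The 12 epithelial markers, a list added after the data had been seen, overlapped between the pH groups in odd mice. They summed to 86.4 to 252 CPM (pH 6.9) and 101 to 120 CPM (pH 7.4). The 252 CPM was in pH 6.9 replicate 1, where Bmp4 was at 83.9 CPM. The 86.4 CPM was in pH 6.9 replicate 5, where Bmp4 was at 16.2 CPM. Fresh replicates 3 and 5 stood at 141 and 74.9 CPM, with Bmp4 at 20.0 and 7.41. The odd pH 7.4 libraries, at 101 to 120 CPM, had Bmp4 at 0. In odd mice 6 of the 12 had a count at pH 6.9 and 4 at pH 7.4. Krt18 had counts in all 15 libraries (27.9 to 220 CPM), Epcam in 13, Krt7 in 11 and Krt8 in 6, while the keratins Krt5, Krt14, Krt15, Krt17 and Krt19 had 0 counts in all 15.

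The summed levels of 5 of the 10 cell-type lists stood apart between the pH groups of odd mice. In pH 6.9 culture the antigen-presenting list was higher, at 125 to 291 CPM against 45.1 to 71.5 in pH 7.4 culture, with 5 of 5 genes detected in both. The erythroid list was higher too, at 144 to 193 CPM against 10.6 to 114, with 2 and 3 of 5 detected and Car1 among those at 0 in both. The lymphoid list was at 23.4 to 66.8 CPM against 9.50 to 22.1, with 2 of 6 detected in each and Cd79a and Cd3e among those at 0 in both. The granulocyte-monocyte list was at 166 CPM in both libraries at pH 6.9, with 5 of 8 detected, against 44.8 to 76.7 at pH 7.4, with 6 of 8, and S100a9 was at 0 in both. The progenitor list (Flt3, Cd48, Cd34 and Cd27) was lower in pH 6.9 culture, at 747 to 877 CPM against 1247 to 2255. This sum is mostly Cd34, which was at 660 to 2081 CPM over the 15 libraries. There Flt3, Cd48 and Cd27 reached at most 51.9, 156 and 127 CPM. The LT-HSC sums overlapped, at 1202 to 1551 CPM in pH 6.9 culture and 1033 to 1673 in pH 7.4 culture. The part of these lists in the values of Bmp4 and Bmpr1a was not tested.

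Bmpr2 (chr1:59763400-59879014, plus strand) is the type II receptor of BMPs. On the same strand another gene, Gm38125, overlaps the Bmpr2 locus over 3438 bp and was not analysed here. Bmpr2 moved in even mice. There it stood at 8.24, 9.90 and 7.13 CPM in pH 7.4 culture and at 16.8, 41.0 and 39.4 in pH 6.9 culture, with no overlap. The log2 fold change was 1.97 ± 0.46 (SE, edgeR adjusted p = 0.0158), higher in 3 of 3 mice. In odd mice Bmpr2 stood at 21.0, 30.9 and 32.5 CPM in pH 7.4 culture and at 29.0 and 20.2 in pH 6.9 culture, and these overlapped. The rise in even mice was lost without pH 7.4 replicate 2 or 6 or pH 6.9 replicate 4 or 6 (edgeR adjusted p 0.0593 to 0.0982). The difference between the sets of mice, -2.19 ± 0.68 (edgeR adjusted p = 0.0324), was lost with the replicate block (0.0683) and without pH 7.4 replicate 2, 3, 5 or 6 or pH 6.9 replicate 1, 4, 5 or 6 (up to 0.135).

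The TGF-beta receptors did not pass within either set of mice. Tgfbr2 (chr9:116084293-116175360, minus strand), the type II receptor, stood at 32.4, 55.7 and 84.7 CPM in pH 7.4 culture and 28.4 and 24.7 in pH 6.9 culture in odd mice. In even mice it stood at 22.1, 30.3 and 14.3 CPM in pH 7.4 culture and 40.0, 40.4 and 51.8 in pH 6.9 culture. The pH groups did not overlap in either set, and their order was opposite. The log2 fold changes were -1.13 ± 0.42 in odd mice (edgeR adjusted p = 0.0916) and 1.01 ± 0.36 in even mice (0.109, and 0.00817 with limma-voom). The difference itself passed, at -2.13 ± 0.55 (edgeR adjusted p = 0.0118), and was lost without pH 6.9 replicate 5 (0.0589). Tgfbr1 (chr4:47353222-47414931, plus strand) stood at 54.4, 57.5 and 46.7 CPM in pH 7.4 culture and 22.8 and 35.8 in pH 6.9 culture in odd mice, without overlap (log2 fold change -0.83 ± 0.38, edgeR adjusted p = 0.175). In even mice Tgfbr1 was at 44.6, 32.2 and 28.9 CPM against 22.6, 59.9 and 40.0, and the ranges overlapped.

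Id3 (chr4:136143497-136145755, plus strand) had the lowest adjusted p of the 10 genes in even mice. There it stood at 10.0, 10.1 and 4.91 CPM in pH 7.4 culture, at 47.6, 85.9 and 61.0 in pH 6.9 culture and at 8.93 and 7.85 in fresh cells. Each pH 6.9 library was above each library of both other groups. Id3 rose by a log2 fold change of 2.98 ± 0.43 over pH 7.4 (edgeR adjusted p = 0.000742), from 8.35 ± 2.97 to 64.8 ± 19.5 CPM (SD, n = 3 each). In odd mice the order was opposite, with 61.1, 77.5 and 39.6 CPM in pH 7.4 culture and 36.4 and 11.2 in pH 6.9 culture, again without overlap. That fold change, -1.40 ± 0.47, did not pass (edgeR adjusted p = 0.0621) but passed with DESeq2 (0.0351) and limma-voom (0.00471), and in edgeR without a filter (0.0146) and without pH 7.4 replicate 5 (0.033) or pH 6.9 replicate 1 (0.0224). The difference between odd and even mice was -4.38 ± 0.64 (edgeR adjusted p = 0.000165) and held without any 1 library (up to 0.00185), but without pH 6.9 replicate 1 it was -5.38, and without pH 6.9 replicate 5 it was -3.70. The rise in even mice also held without any 1 library (up to 0.00984), but not over 18 libraries (0.32).

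Id2 (chr12:25093799-25097140, minus strand) rose in even mice, from 12.4, 17.3 and 9.04 CPM in pH 7.4 culture to 34.2, 60.2 and 57.7 in pH 6.9 culture. The groups did not overlap, and the log2 fold change was 2.00 ± 0.47 (edgeR adjusted p = 0.0186). The call was lost without pH 7.4 replicate 2 or 6 or pH 6.9 replicate 4 or 6 (0.0594 to 0.111). In odd mice Id2 stood at 14.3, 82.8 and 68.1 CPM in pH 7.4 culture and 68.5 and 77.7 in pH 6.9 culture, where only pH 7.4 replicate 1 was low. The difference between the sets did not pass for Id2, but passed without pH 7.4 replicate 1 (edgeR adjusted p = 0.0112) and without a filter (0.0151).

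Id1 (chr2:152736251-152737410, plus strand) did not pass in either set, though its log2 fold changes were close. They were 0.66 ± 0.35 in odd mice (edgeR adjusted p = 0.239) and 0.69 ± 0.31 in even mice (0.216). In even mice Id1 stood at 75.2, 81.6 and 89.9 CPM in pH 7.4 culture and at 122, 107 and 166 in pH 6.9 culture, without overlap. It passed there with limma-voom (0.0454). In odd mice it stood at 45.3, 99.5 and 145 CPM against 197 and 111, overlapping, and passed without pH 7.4 replicate 5 (edgeR adjusted p = 0.0481).

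Smad7, the inhibitor, was counted low, with 441 counts over all 18 libraries. In even mice it stood at 3.09, 2.85 and 1.27 CPM in pH 7.4 culture and at 8.12, 10.5 and 10.8 in pH 6.9 culture, without overlap. It rose by a log2 fold change of 2.05 ± 0.60 (edgeR adjusted p = 0.0486). This call was lost with the mouse number as a replicate block (0.0702), with DESeq2's size factors (0.051), without a filter (0.0873) and in 10 of 15 fits that left out 1 library (up to 0.245). Those libraries were fresh replicates 3 and 5, pH 7.4 replicates 1, 2, 3, 4 and 6 and pH 6.9 replicates 2, 4 and 6. In odd mice Smad7 stood at 8.11, 14.1 and 7.92 CPM in pH 7.4 culture and at 9.25 and 4.94 in pH 6.9 culture, and the groups overlapped. The difference between the sets passed for Smad7 only with DESeq2 (0.0196), limma-voom (0.0061) and, in edgeR, without fresh replicate 2 or 6 or pH 7.4 replicate 5 (0.0459 to 0.0497).

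The summed levels of 4 of the 10 cell-type lists also stood apart between the pH groups of even mice. The 12 LT-HSC markers summed to 491 to 768 CPM in pH 7.4 culture and to 1359 to 1776 in pH 6.9 culture. Of the 12, Ly6a had the widest range over the 15 libraries, at 110 to 1072 CPM. The 8 granulocyte-monocyte markers summed to 1757 to 5106 CPM in pH 7.4 culture, with 7 of 8 detected, and to 33.9 to 55.7 in pH 6.9 culture, with 6 of 8. The lymphoid list was at 54.0 to 106 CPM in pH 7.4 culture, with 4 of 6 detected, and at 6.88 to 25.2 in pH 6.9 culture, with 3 of 6, and Cd79a was at 0 in both. The epithelial list was at 32.2 to 87.2 CPM in pH 7.4 culture and 92.0 to 126 in pH 6.9 culture, with 4 and 3 of 12 detected. S100a8 was at 0 in all even pH 7.4 and pH 6.9 libraries, and S100a9 was at 0 in those in pH 6.9 culture. The part of these lists in the values of Bmpr2, Id2, Id3 and Smad7 was not tested.

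Against fresh cells within the sets of mice, culture at pH 7.4 moved none of the 10 genes past the threshold of edgeR's test. The backgrounds were 0.107% of genes in odd mice, 0.116% in even mice and 0.0891% for the difference. At an unadjusted p under 0.05 there were 5, 1 and 5 of the 10 genes, against 10.4%, 12.2% and 9.94% of genes. Here limma-voom called 0 in each, and DESeq2 called 2, 0 and 0. The pair called by DESeq2 was Bmp4 (0.0474) and Bmpr1a (0.00489). In odd mice Bmp4 was at least 53.8-fold lower and Bmpr1a at least 23.9-fold lower in pH 7.4 culture than in fresh cells, and edgeR's adjusted p was 0.125 and 0.0802. Without pH 7.4 replicate 3 these bounds were 21.1-fold and 9.39-fold, the former was 29.1-fold without fresh replicate 3, and the latter 14.6-fold without fresh replicate 5. At pH 6.9 against fresh cells, 0 of 10 genes passed in odd mice (background 0.49%), with 1 at an unadjusted p under 0.05 (background 13.2%) and 0 by DESeq2 and limma-voom. In even mice Id3 alone rose, 1 of 10 against 10.1% of genes, by a log2 fold change of 2.98 ± 0.51 (edgeR adjusted p = 0.00158). For Id3 the difference between the sets of mice passed as well, at -2.95 ± 0.70 (edgeR adjusted p = 0.0106, background 12%), and was -3.95 without pH 6.9 replicate 1 and -2.26 without pH 6.9 replicate 5. Over 18 libraries these calls of Id3 were lost (0.0504 and 0.0629). Tgfbr2 passed at pH 6.9 against fresh cells in even mice only with DESeq2 (0.0468), without a filter (0.0409) and without pH 7.4 replicate 1 (0.0498). Comparisons that share the pH 7.4, pH 6.9 or fresh libraries are not independent of each other.

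The wider pathway was read from a list of 104 genes, of which 103 were in the table, 84 had a count and 52 were tested in the 15 libraries. Between pH 6.9 and pH 7.4, edgeR's test called 2 up and 6 down of the 52 in odd mice, where the background was 10.6% of genes, and 9 up and 2 down in even mice, where it was 6.24%. The 52 had a median log2 fold change of -0.30 (odd) and 0.78 (even), against -0.08 and 0.07 over all genes tested. The difference between the sets passed for 14 of the 52, 4 upward and 10 downward, against 17.2% of genes. Over all 18 libraries 0 of 45 genes passed edgeR's test in any of the 3 comparisons (background 0%), and 0 passed by DESeq2 and limma-voom. At an unadjusted p under 0.05 there were 0 (pH), 4 (pH 7.4 minus fresh) and 3 (pH 6.9 minus fresh) of the 45, against 2.51%, 3.77% and 2.27% of genes.

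Fstl3, a secreted binder of activins, had the lowest adjusted p of the list in both sets for pH. It stood at 18.5 to 20.0 CPM in the 3 odd pH 7.4 libraries and at 15.7 to 18.3 in the 3 even pH 6.9 libraries. In the other 9 of the 15 libraries Fstl3 was at most 2.12 CPM, and it had 0 counts in the odd pH 6.9 ones. It was at least 57.8-fold lower in pH 6.9 culture in odd mice (edgeR adjusted p = 0.000805) and rose by a log2 fold change of 4.40 ± 0.71 in even mice (0.00196). The bound in odd mice was 10.5-fold without pH 6.9 replicate 5.

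Hes1, a transcriptional repressor listed as a target, stood at 175, 191 and 158 CPM in pH 7.4 culture and 61.1 and 34.8 in pH 6.9 culture in odd mice. In even mice Hes1 stood at 54.1, 45.7 and 16.8 CPM in pH 7.4 culture and at 201, 177 and 164 in pH 6.9 culture. It fell by 1.90 in the former (log2, edgeR adjusted p = 0.0209) and rose by 2.24 in the latter (0.00557). Klf10, a TGF-beta-inducible repressor, fell by 1.29 and rose by 1.09 in the same order (edgeR adjusted p = 0.0105 and 0.0161). Skil, a co-repressor that binds Smads, fell by 1.73 and rose by 1.65 (edgeR adjusted p = 0.0247 and 0.0199). Ldlrad4, which restrains TGF-beta signalling, fell by 3.56 in odd mice (edgeR adjusted p = 0.0495). Pmepa1, a TGF-beta-induced inhibitor of the pathway, rose by 2.72 ± 0.49 in even mice (edgeR adjusted p = 0.00637). There it went from 30.6, 47.8 and 13.6 CPM to 203, 234 and 165.

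Without any 1 library, the pH calls of Fstl3 in both sets, of Fkbp1a in odd mice and of Hes1, Pmepa1, Nrros and Strap in even mice all held. When all 18 libraries entered the fit of the 6 sets, 0 of 10745 genes passed for pH in even mice. All pH calls of listed genes in even mice were thus lost there. In odd mice Hes1 was lost without pH 7.4 replicate 1 or pH 6.9 replicate 1 or 5 (up to 0.168), and Klf10 without pH 6.9 replicate 1 or 5 (up to 0.0692). Skil was lost there without pH 7.4 replicate 3 or pH 6.9 replicate 5 (up to 0.194), and Ldlrad4 and Gdf3 in 10 and 6 of 15 such fits (up to 0.146 and 0.23). In even mice Klf10 and Tgfbi were lost without pH 7.4 replicate 2 or 6 or pH 6.9 replicate 4 (up to 0.113 and 0.0804). Skil was lost there without replicate 6 of either pH (up to 0.104), and Ltbp3 in 5 of 15 fits (up to 0.134).

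Other listed genes passed in 1 of the sets, and the difference between sets passed for Nrros, Strap and Fkbp1a but not for Tgfbi, Ltbp3 and Gdf3. In even mice Tgfbi, a matrix protein induced by TGF-beta, rose by 2.21 on the log2 scale (edgeR adjusted p = 0.0122) and Ltbp3, which binds latent TGF-beta, by 1.91 (0.0327). Nrros, another binder of latent TGF-beta, fell by 1.08 (edgeR adjusted p = 0.00477) and Strap, a receptor-associated inhibitor, by 0.78 (0.00735). In odd mice Gdf3, a ligand of the family, rose by 2.54 (edgeR adjusted p = 0.0395) and Fkbp1a, which binds type I receptors, by 1.20 (0.00707). At pH 6.9 against fresh cells 6 of the 52 rose and 2 fell in even mice, against 10.1% of genes called. Hes1 (2.48), Klf10 (1.61), Pmepa1 (2.21), Fstl3 (5.12) and Gadd45b (2.27) were among the 6 by log2 fold change, and Strap fell by 0.72. Of these, Klf10 and Fstl3 held without any 1 library, Hes1 was lost without fresh replicate 6 (0.0596) and Pmepa1 without that library or pH 6.9 replicate 4 (up to 0.164). Strap was lost without fresh replicate 6 or pH 6.9 replicate 4 or 6 (up to 0.179), and Gadd45b in 6 of 15 such fits (up to 0.319). In odd mice 0 of 52 passed edgeR's test there (background 0.49%), with 4 at an unadjusted p under 0.05 (background 13.2%), 1 by DESeq2 and 0 by limma-voom. The difference passed for 5 of 52, all downward, against 12% of genes. For pH 7.4 against fresh cells edgeR called 0 of 52 in odd mice, in even mice and for the difference. There 13, 3 and 9 had an unadjusted p under 0.05, against 10.4%, 12.2% and 9.94% of genes, and DESeq2 called 1 in each and limma-voom 0, 1 and 0.

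**Figure D3:**
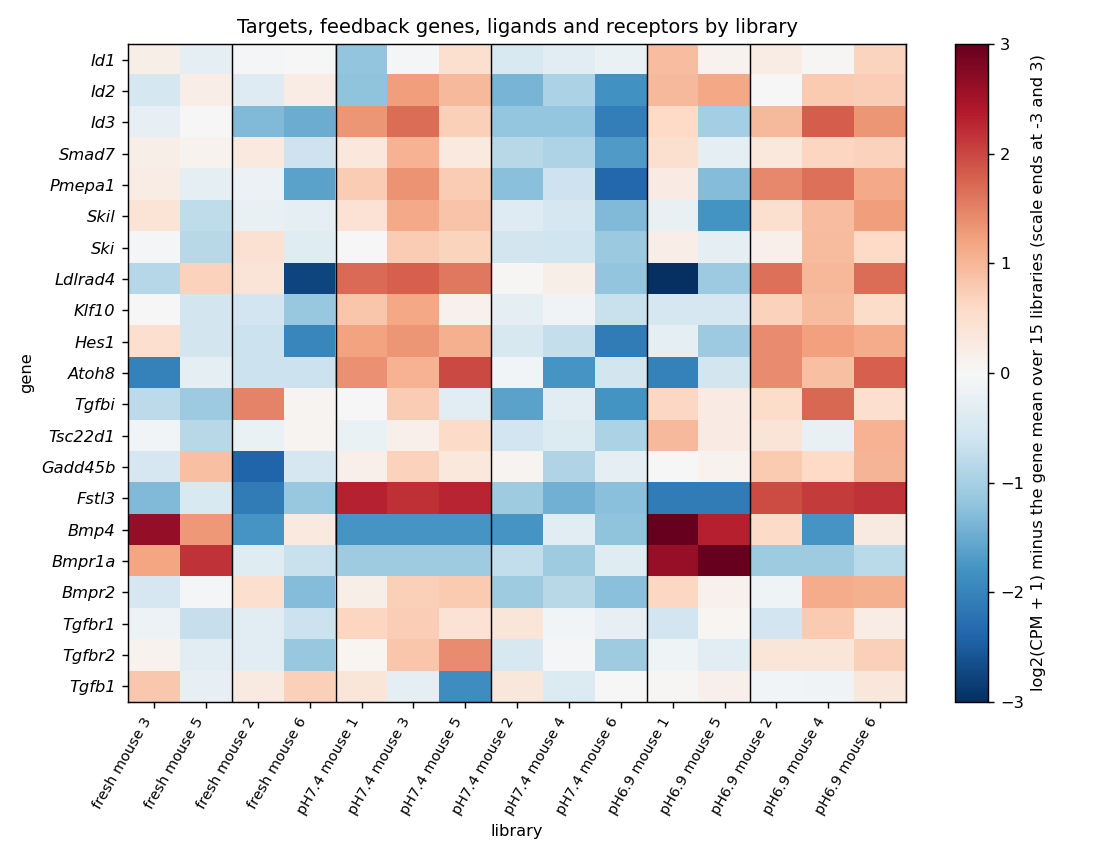
log2(CPM + 1) of 21 genes in the 15 libraries, as the difference from each gene's mean, with the colour scale ended at -3 and 3; the listed genes beside the 10 were chosen after their values were seen. Rows from Id3 to Fstl3 are mostly red in odd pH 7.4 and even pH 6.9 libraries, and Bmp4 and Bmpr1a are red in odd fresh and pH 6.9 libraries. Listed genes that passed for pH in the other direction are not shown. These were Nrros and Strap, lower at pH 6.9 in even mice, and Gdf3 and Fkbp1a, higher at pH 6.9 in odd mice.

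Apart from Smad7, none of the Smads that were tested passed in a pH comparison by edgeR's test. Over the 15 libraries Smad4, the shared partner, stood at 31.0 to 121 CPM and Smad2 at 59.6 to 91.5. Smad1 stood at 19.7 to 62.3 CPM, Smad5 at 13.6 to 30.6 and Smad3 at 1.19 to 26.2. Smad9, which was too low to be tested, reached 1.59 CPM at most and Smad6, the BMP-side inhibitor, 7.15. Smad1 had a log2 fold change of 0.82 ± 0.35 in even mice (edgeR adjusted p = 0.186) and -0.34 ± 0.40 in odd mice (0.636). Of the other receptors, Bmpr1b had 0 counts in all 15 libraries and Acvrl1 had counts only in pH 6.9 replicate 1. Acvr1, Acvr1b and Acvr2a reached at most 10.9, 12.3 and 10.2 CPM and passed in no comparison by edgeR's test. Tgfbr3, listed as a receptor or co-receptor, reached at most 10.8 CPM. It passed for the pH difference between odd and even mice (edgeR adjusted p = 0.0275). In even mice Tgfbr3 was lower at pH 6.9 than in fresh cells (edgeR adjusted p = 0.0338). Both calls were lost without pH 6.9 replicate 4 or 6. Eng, a co-receptor also found on LT-HSCs, stood at 33.5 to 117 CPM and did not pass between the pH groups.

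The genes most like each of the 7 genes that passed were found by Pearson correlation of log2 CPM over the 15 libraries. These libraries share the 6 sets, so the values are a description. Among the genes most like Id3 were Adssl1 (0.955) and Ankrd54 (0.94). Bmpr2 was most like Abcc1 (0.921), Nfat5 (0.913) and Gsta3 (0.905). Smad7 was most like Sbno2 (0.902), Smg6 (0.901) and Pmepa1 (0.892). Tgfbr2 was most like Smim14 (0.913), Cd81 (0.909) and Ypel3 (0.906), and Id2 like Ly6a (0.868), Fth1 (0.856) and Tns1 (0.843). Bmp4 was most like Npdc1 (0.906), Hmg20b (0.891) and Sbspon (0.888), and Bmpr1a like Peg3 (0.915), Mt2 (0.895) and Trib1 (0.87). Among the 10 genes the highest coefficients were 0.864 for Bmpr2 with Smad7, 0.858 for Id3 with Smad7 and 0.794 for Bmp4 with Bmpr1a.

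Because Bmpr2, Tgfbr2, Id2 and Id3 were among those that differed between sets or pH, the 250 bases upstream of their RefSeq start sites were read from RefSeq's promoter table (GRCm38.p6), where 8 of the 10 genes matched. The windows of Bmpr2, Id2 and Id3 also hold bases of an exon of the same gene in GENCODE's annotation, where these genes start further upstream, while that of Tgfbr2 holds none. Both strands were searched for CAGAC, a Smad-binding core that reads GTCTG on the other strand. GGCGCC was searched as a BMP-responsive element and GTCTAGAC as the Smad box, and both read the same on either strand. No string holds another. CAGAC was in 42.2% of 32851 promoters, GGCGCC in 9.59% and GTCTAGAC in 0.167%. The search, and so the 32851 promoters, left out Smad7's chromosome. Of the 8 genes, 3 held CAGAC, 4 held GGCGCC and 0 held GTCTAGAC. Id1 and Smad7 are not among the 8, so their promoters were not read. The lines below show the Tgfbr2 window whole (chr9:116175364-116175613, minus strand) and the matches of Id3, Id2 and Bmpr2 with their neighbouring bases, capitals marking the match. The Id3 matches lie 167 and 68 bases upstream of the start (chr4:136143645-136143669 and chr4:136143744-136143768, plus strand), that of Id2 at 231 (chr12:25096308-25096333, minus strand) and that of Bmpr2 at 105 (chr1:59764164-59764189, plus strand). A match is a description of letters only.
Tgfbr2 promoter: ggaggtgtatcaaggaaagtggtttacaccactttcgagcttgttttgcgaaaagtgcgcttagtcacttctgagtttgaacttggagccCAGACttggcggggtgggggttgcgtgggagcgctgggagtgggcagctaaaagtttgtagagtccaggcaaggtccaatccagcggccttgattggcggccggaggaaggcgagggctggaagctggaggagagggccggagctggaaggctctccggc
Id3 site at 167: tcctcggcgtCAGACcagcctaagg
Id3 site at 68: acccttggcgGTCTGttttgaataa
Id2 site at 231: aggccccctgGGCGCCcagcgcacac
Bmpr2 site at 105: ccggcggccgGGCGCCgctgcctgcc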

How the data were processed

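RNA of 100 sorted LT-HSCs per library was amplified with SMART-Seq v4 and Nextera XT and sequenced as 75 bp pairs, per the labels' protocols. Reads were quantified with kallisto against mm10, per the submitters' processing notes. The authors deposited expected counts (estimated counts per gene symbol), all of them whole numbers, and their summing and rounding are not given in the sources used here. Fits used edgeR 4.0.16 (R 4.3.3) with filterByExpr, TMM scaling and robust quasi-likelihood tests, Benjamini-Hochberg adjusted at 0.05. One fit had 3 groups over 18 libraries (10104 genes). The other had 6 sets of group and odd or even mouse number over the 15 libraries with at least 1e+05 counts and 10000 genes detected (11226 genes), with contrasts within odd-numbered mice, within even-numbered mice and of odd minus even. CPM use the TMM-scaled totals of the 18 libraries. The genes, lists, library sets and tests were chosen with earlier results of these data known. All 10 genes are named. Listed pathway genes are named when among the 5 with the largest fold per direction that passed and reached 10 CPM in a set, along with Smads and main receptors. The design text gives 6 individual mice, so replicate numbers were taken to pair libraries. Profiles sharing a number correlated at -0.197 to 0.186 (median -0.0725, 12 pairs, deviations from group means). Those with different numbers correlated at -0.272 to 0.28 (median 0.0189, 62 pairs). With deviations from set means the medians were 0.0307 (same number) and -0.017 (different numbers). Floors take 3 counts over a set and cover counting error only, since the libraries have no molecular identifiers. Alternatives were DESeq2 1.42.0 and its size factors, limma-voom (limma 3.58.1), other filters, a replicate block, all 18 libraries and leaving out each library. Loci are from GENCODE M21 (mm10). Some items are not reported here. The fits were tested on simulated counts.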

Additional observations from a re-analysis of the deposited data

Results flagged for a closer look

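In 6 of 30 groups of 6 libraries 1 library stood far from the rest by Dixon's test. For normally distributed values chance does this in about 1 in 20 groups. CPM are bounded at 0 and these groups join odd and even mice, so that rate need not hold here. Bmp4 was highest in fresh replicate 3 (20.0 CPM, next 7.41), in pH 7.4 replicate 4 (1.71, next 0.476) and in pH 6.9 replicate 1 (83.9, next 20.2). Tgfb1 was lowest in pH 6.9 replicate 3 (3.51 CPM, next 84.4) and Id1 in fresh replicate 1 (0 CPM, next 85.7), where 3 counts amount to 240.5 CPM. Id2 was highest in fresh replicate 4 (108 CPM, next 40.2). The last 3 are the libraries left out of the 15.

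The pH effect differed between odd-numbered and even-numbered mice, by the test of the difference itself, for 5 genes. The log2 difference was -2.19 for Bmpr2, -2.13 for Tgfbr2 and -4.38 for Id3. For Bmp4 (9.08) and Bmpr1a (10.52) the fitted difference rests on a set at 0 counts and is not a size. The effect of pH 6.9 culture over fresh cells differed for Id3, by -2.95. The first index, which differs between these sets in every group, cannot be told apart from the mice. It also differs between the groups, so it cannot be told apart from pH or culture either.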

How the results depend on the processing

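No result changed direction among those that passed under any alternative run. Fits with all 18 libraries called 0 members in even-numbered mice for pH (4 with 15 libraries), 2 for the difference (5), 0 at pH 6.9 over fresh in even-numbered mice (1) and 0 for its difference (1), and 8 pathway calls against 46 over all comparisons. Without a filter there were 81 pathway calls, and members called rose from 0 to 3, 1 and 2 for pH 7.4 over fresh in odd-numbered mice, in even-numbered mice and for the difference, and from 1 to 2 for pH 6.9 over fresh in even-numbered mice. All genes called for pH 7.4 over fresh rose at the same time from 12, 13 and 10 to 317, 369 and 264 (2.02%, 2.35% and 1.68% of genes). DESeq2 called 2 for pH 7.4 over fresh in odd-numbered mice and 2 for pH 6.9 over fresh in even-numbered mice. The share of all genes called by DESeq2, or beside each pathway count here, is not given. These counts are therefore not read as results about the listed genes. The replicate block, which pairs libraries by mouse number, left 3 members for the pH difference (5 without it), losing Bmp4 and Bmpr2, and 3 in even-numbered mice, losing Smad7; it changed no other count of members. The cause of these changes was not tested. Leaving out 1 library gave 2 to 4 members in odd-numbered mice, 1 to 4 in even-numbered mice and 3 to 6 for the difference for pH, 1 to 2 at pH 6.9 over fresh in even-numbered mice and 34 to 50 pathway calls, and changed no other count of members. Sets of 2 libraries then hold a lone library assumed to vary like the others. Bmp4, Bmpr1a and Smad7 had 436, 238 and 441 counts in all, which limits their precision.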
